A study of Homo sapiens with 6 samples.

Results

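The genes described here were 10 amino acid transporter genes, SLC7A11, SLC7A5, SLC3A2, SLC7A1, SLC7A2, SLC1A4, SLC1A5, SLC38A1, SLC38A2 and SLC43A1, taken by their symbols from the 27754 genes in the count tables. All 10 were found in every library, and all 10 were among the 15657 genes that passed the filter on low counts. The cells were T47D, an established luminal breast cancer line that expresses estrogen and progesterone receptors. They grew as adherent cultures in RPMI with fetal bovine serum, either in normoxia at 20% O2 (3 libraries) or in a chamber set to 0.5% O2 for 48 h (hypoxia, 3 libraries). No other treatment or genetic change separated the groups, and the cells are 1 line in culture without the other cells of a tumor. The question was which transporter transcripts differed between hypoxic and normoxic cells, by how much, and in which libraries.

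Amino acid transporters of the solute carrier (SLC) families move amino acids across the plasma membrane, and tumor cells rely on them for protein synthesis, glutathione and mTORC1 signaling. SLC3A2 (CD98, the 4F2 heavy chain) has no transport activity of its own but carries several light chains to the membrane, among them SLC7A5 (LAT1), which exchanges glutamine for leucine and other large neutral amino acids, and SLC7A11 (xCT), which exchanges glutamate for cystine. Several of these genes are textbook targets of ATF4, the transcription factor of the amino acid response and the integrated stress response, which binds elements of the C/EBP-ATF type, and others are known targets of MYC or of hypoxia-inducible factors.

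Bases around the transcript starts are given as a description of the promoters of the genes that moved and of those that did not. RefSeq windows from 250 bases before to 50 bases after a start (build GRCh38.p14) were at hand for 8 of the 10 genes, 15 windows in all, and SLC7A11 and SLC7A2 were not analysed in this way. The letters TGATGNAA, the form of a C/EBP-ATF response element, were searched on both strands and found in the windows of 5 of the 8 genes, compared with 4.46% of all 27305 genes with a window and 3.62% of all 35116 windows. The 5 matches are shown 5′ to 3′ on the strand of the gene, with the matching bases in capitals.
SLC1A4: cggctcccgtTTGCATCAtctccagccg
SLC3A2: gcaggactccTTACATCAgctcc
SLC38A1: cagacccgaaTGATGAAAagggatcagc
SLC7A1: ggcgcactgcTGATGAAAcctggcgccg
SLC1A5: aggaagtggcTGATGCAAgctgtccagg
The stretch of SLC1A4 (chr2:64989382-64989409, plus strand) has its match 7 bases before 1 of its 2 starts, on the opposite strand of the gene. That of SLC3A2 (chr11:62881726-62881748, plus strand) has it 37 bases after a start, also on the opposite strand. SLC38A1 (chr12:46266503-46266530, minus strand) matched 4 bases before a start, SLC7A1 (chr13:29595664-29595691, minus strand) 7 bases after, and SLC1A5 (chr19:46784894-46784921, minus strand) 97 bases before one of its 3 starts. Of these 5 genes, SLC1A4 and SLC7A1 rose in hypoxia, SLC3A2 passed only where replicate number entered the fit or in some other settings, and SLC1A5 and SLC38A1 did not rise, as described for each gene.

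The letters CACGTG, an E-box that several helix-loop-helix factors including MYC recognize, were found in 3 of the 8 genes, compared with 8.77% of all genes with a window. They are shown in the same way.
SLC43A1: gcgggcgagtCACGTGcgcgtgaaac
SLC7A5: ccggacgacgCACGTGctccgagctg
SLC1A5: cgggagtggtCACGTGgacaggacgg
These stretches lie at chr11:57515799-57515824 (112 bases before a start of SLC43A1), chr16:87869622-87869647 (130 bases before the start of SLC7A5) and chr19:46787328-46787353 (50 bases before another start of SLC1A5), all on the minus strand. Each of them also holds ACGTG, the letters of a hypoxia response element, which overlap the E-box. ACGTG was found in 5 of the 8 genes (SLC7A5, SLC1A4, SLC1A5, SLC38A1 and SLC43A1) and in 24.9% of all genes, and GCGTG, the other form of that element, in 7 of the 8 genes and in 40.6% of all genes. Of the 7 motifs searched, TGANGCAA was in 2 of the 8 genes (4.01% of all genes), TGANNNNGC in 5 (47.1%) and TGACGTCA in none (2.25%). TGANGCAA shares its letters with TGATGNAA where both matched, in SLC1A4 and SLC1A5. A match describes letters only, and binding was not measured in these data.

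Libraries held between 32989104 and 40943424 counts, apart from replicate 3 of hypoxia with 89883409, and 3 counts in a library amounted to 0.0334 to 0.0909 CPM (the count of a gene scaled to a common library total). VEGFA and CA9, textbook hypoxia-induced genes, rose 20.5-fold and 39.0-fold, the direction that the labels imply (edgeR's quasi-likelihood test, adjusted p = 5.16e-06 and 6.16e-05). CA9 had 37, 26 and 6 counts in normoxia and passed the filter on low counts only through its hypoxia libraries. Its fold is imprecise and its call adds no support, so the check rests on VEGFA, with at least 1060 counts in every library. The first principal component (82.8% of the variance) separated the conditions, and along the second (10.4%) both libraries of replicate 3 stood away from the other 4. The luminal markers fixed for the check (10 genes) summed to 13959 to 18122 CPM in normoxia and 10194 to 13473 CPM in hypoxia. In hypoxia 4 of them fell (PGR, ESR1, GATA3 and FOXA1) and 1 rose, beside 29.1% and 30.4% of all genes tested. PGR fell to 0.131 and ESR1 to 0.275 of the normoxia level. With the replicate number in the fit 6 fell and 2 rose, beside 35.2% and 36.6%. The 14 markers of other cell types summed to 97.1 to 122 CPM in normoxia and 100 to 140 CPM in hypoxia. Of the 6 that could be tested, 2 were higher (CD68 and PDGFRB), beside 30.4% of all genes. One of these, VIM, had 7, 12 and 395 counts in normoxia and 35, 35 and 1001 in hypoxia, and so moved with replicate 3, while PTPRC, COL1A2, KRT14 and PECAM1 had at most 7 counts in any library. Most of the sum came from COL1A1, with 2814 to 9062 counts (76.9 to 99.1 CPM), and ACTA2 had 347 to 1967 counts. In such bulk libraries, fewer cells that express a gene and less RNA per cell cannot be told apart. The labels do not say whether the libraries came from separate cultures, although the study's figure legends speak of independent experiments, and p-values measure the spread between these libraries, which may be technical in part.

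Of the 10 transporter genes, 4 rose in hypoxia (SLC7A11, SLC7A1, SLC1A4 and SLC43A1), none passed the test in the other direction, and 6 did not pass at an adjusted p of 0.05. Over all genes tested, 59.5% passed, 30.4% in the higher and 29.1% in the lower direction, and 4 of 10 was read against that share of 30.4%. The median log2 fold change was 0.73 over the 10 genes and 0.028 over all genes tested. No member was lower at an unadjusted p under 0.05 in the quasi-likelihood test, and edgeR's exact test and DESeq2 also called 0 lower. The exact test called 6 members higher, SLC7A5 and SLC3A2 in addition, and DESeq2 called 4. Of all 15657 genes, the exact test called 4888 higher and 4594 lower, and DESeq2 4774 higher and 4784 lower. Libraries of the 2 conditions with the same replicate number deviated together, and once replicate number was added to the fit (the replicate block) 6 members were higher (SLC7A5 and SLC3A2 in addition) and 2 lower (SLC38A1 and SLC38A2), where 36.6% and 35.2% of all genes passed. All 3 hypoxia libraries lay above all 3 normoxia libraries for 4 members and below them for 1 (SLC38A1), compared with 34.9% and 32.4% of all genes tested.

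**Figure D1:**
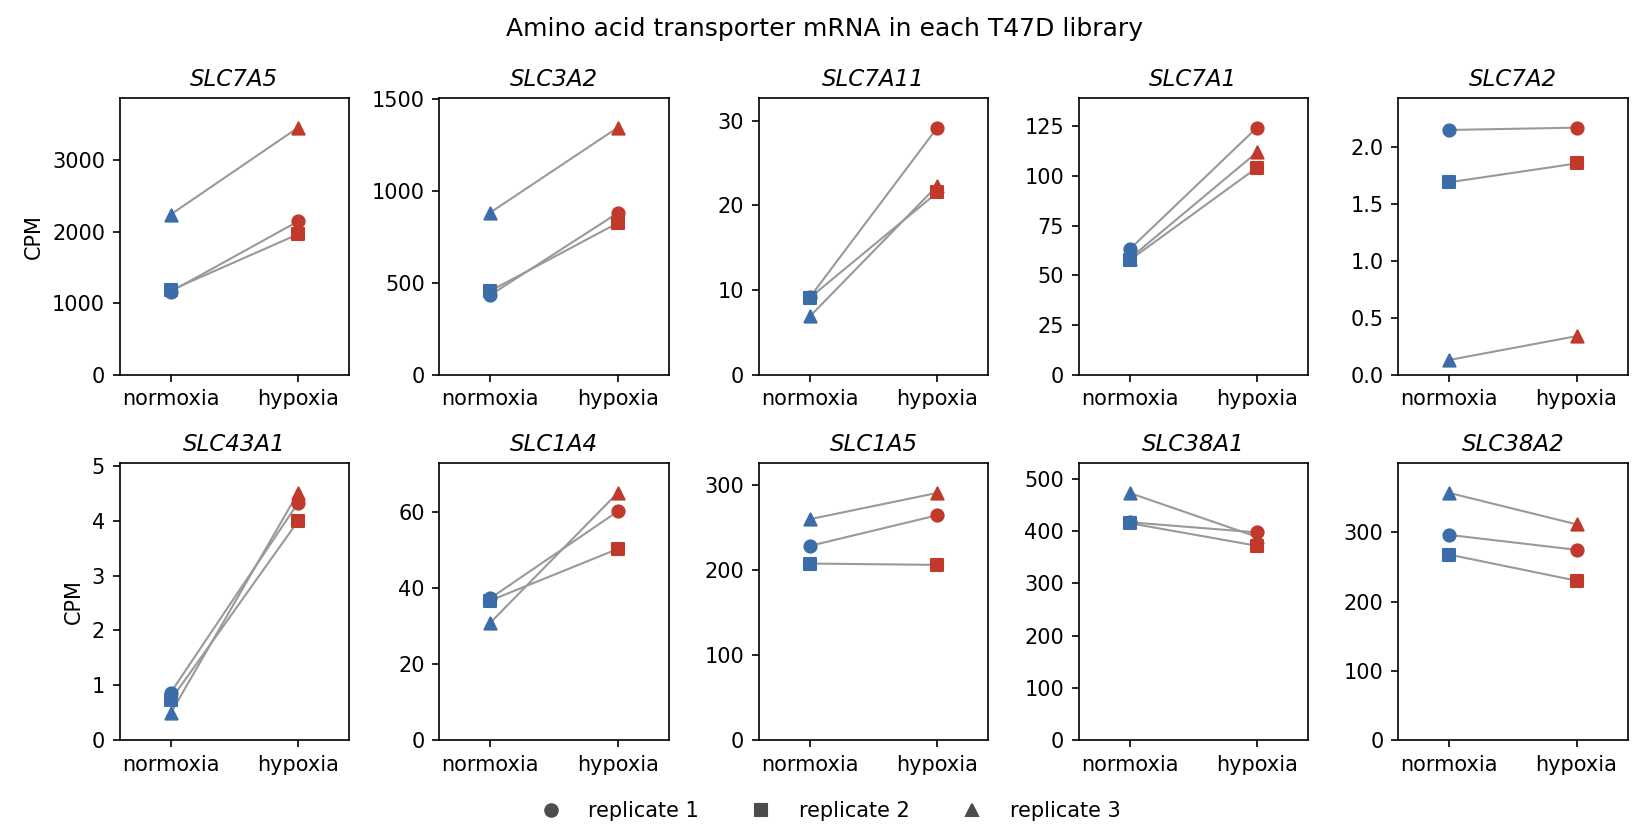
Each panel plots the TMM-normalised CPM of 1 transporter gene (vertical axis, from 0) in the 3 normoxia (blue) and 3 hypoxia (red) libraries, with circles, squares and triangles for replicates 1, 2 and 3 and grey lines joining the same replicate number. Replicate 3 is highest in both conditions for SLC7A5, SLC3A2, SLC1A5 and SLC38A2 and lowest in both for SLC7A2. For SLC7A11, SLC7A1, SLC1A4 and SLC43A1 every hypoxia library lies above every normoxia library.

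The heavy chain SLC3A2 (GRCh37 chr11:62623484-62656355, plus strand, exons of 2902 bases together) had 433, 455 and 881 CPM in normoxia replicates 1, 2 and 3 and 878, 824 and 1343 CPM in hypoxia. Replicate 3 was the highest library of each condition, and normoxia replicate 3 lay just above hypoxia replicates 1 and 2, so the groups overlapped. The mean was 590 ± 253 CPM in normoxia and 1015 ± 285 CPM in hypoxia (SD, n = 3 each), a difference that did not pass in the quasi-likelihood test with condition alone (log2 fold change 0.78, SE 0.30, edgeR adjusted p = 0.0518). It passed in edgeR's exact test, which the study used (adjusted p = 0.0187), and without normoxia replicate 3 (1.19, edgeR adjusted p = 0.0022), and was 0.53 without hypoxia replicate 3 (edgeR adjusted p = 0.152). Within replicate numbers the folds were 2.03, 1.81 and 1.52, all in the same direction. With the replicate block the gene rose (0.83, SE 0.08, edgeR adjusted p = 4.37e-05), and it also rose when both replicate 3 libraries were left out (0.94, edgeR adjusted p = 6.45e-09). Over the 18 alternative settings the adjusted p ran from 6.45e-09 to 0.163, with a call in 8.

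SLC7A5, the light chain for large neutral amino acids (chr16:87863622-87903105, minus strand, 4555 bases of exon), followed the same pattern at a higher level. It had 1162, 1181 and 2241 CPM in normoxia and 2146, 1966 and 3459 CPM in hypoxia. Replicate 3 stood 1.91 times above the mean of replicates 1 and 2 in normoxia and 1.68 times above it in hypoxia, and the groups overlapped through it. The means of 1528 ± 618 and 2524 ± 815 CPM (SD, n = 3 each) gave a log2 fold change of 0.72 (SE 0.30) that did not pass in the quasi-likelihood test with condition alone (edgeR adjusted p = 0.0702). It passed in edgeR's exact test (adjusted p = 0.0323) and without normoxia replicate 3 (1.10, edgeR adjusted p = 0.00504), and was 0.42 without hypoxia replicate 3 (edgeR adjusted p = 0.218). The folds within replicate numbers were 1.85, 1.66 and 1.54, and with the replicate block the gene rose by 0.75 (SE 0.06, edgeR adjusted p = 2.57e-05). It also rose without both replicate 3 libraries (0.82, edgeR adjusted p = 3.69e-08), and over the 18 alternatives the adjusted p ran from 3.69e-08 to 0.218 with a call in 8. Replicate 3 differed from replicates 1 and 2 by 0.84 (SLC7A5) and 0.82 (SLC3A2) on the log2 scale, and 4.41% and 4.68% of all genes tested differed by more in either direction. Whether what sets replicate 3 apart, VIM included, has a part in these levels was not tested.

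SLC7A11, the cystine and glutamate exchanger (chr4:139085248-139163503, minus strand, 9648 bases of exon), was far less abundant. It had 9.15, 9.08 and 6.88 CPM in normoxia and 29.2, 21.5 and 22.3 CPM in hypoxia, from 213 to 2040 counts. All hypoxia libraries lay above all normoxia libraries, and replicate 3 did not stand out. The gene rose 2.90-fold, from 8.37 ± 1.29 to 24.3 ± 4.21 CPM (log2 fold change 1.54, SE 0.17, edgeR adjusted p = 0.000241), and 9.47% of all genes tested had a higher fold change. It overlaps SLC7A11-AS1 on the other strand by at most 276 exon bases, and that gene had 0 or 1 count in every library.

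SLC43A1 (LAT3, chr11:57252004-57283192, minus strand, 2639 bases of exon) carries branched-chain amino acids and phenylalanine without a heavy chain or sodium. It had the highest fold change of the 10 genes from one of the lowest levels. Its values were 0.861, 0.726 and 0.485 CPM in normoxia (34, 27 and 15 counts) and 4.32, 3.99 and 4.51 CPM in hypoxia (175, 146 and 412 counts). The lowest hypoxia library was several times above the highest normoxia library. The mean rose 6.12-fold, from 0.691 ± 0.191 to 4.27 ± 0.262 CPM (log2 fold change 2.61, SE 0.24, edgeR adjusted p = 0.000131), and 3.69% of all genes tested had a higher one. The folds within replicate numbers were 5.02, 5.50 and 9.30, the last against the normoxia library with 15 counts.

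The cationic amino acid transporters SLC7A1 (CAT1) and SLC7A2 (CAT2) both import arginine, lysine and ornithine. SLC7A1 (chr13:30083551-30169825, minus strand, 7343 bases of exon) had 63.0, 57.6 and 58.4 CPM in normoxia and 124, 104 and 112 CPM in hypoxia. The libraries within each condition were close together and the conditions far apart. It rose 1.90-fold, from 59.6 ± 2.94 to 113 ± 10.2 CPM (log2 fold change 0.93, SE 0.09, edgeR adjusted p = 0.000166). SLC7A2 (7854 bases of exon) had few counts, with 85, 63 and 4 counts in normoxia and 88, 68 and 31 in hypoxia, or 2.15, 1.69, 0.129, 2.17, 1.86 and 0.339 CPM in that order. Replicate 3 was low in both conditions, at 0.0672 and 0.168 of the mean of replicates 1 and 2, and 0.0639% of all genes tested differed by more between replicate 3 and the others. The difference between conditions did not pass (log2 fold change 0.06, SE 0.86, edgeR adjusted p = 0.958), also with the replicate block (0.23, SE 0.26, edgeR adjusted p = 0.445).

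SLC1A4 (ASCT1) and SLC1A5 (ASCT2) exchange small neutral amino acids with sodium, SLC1A4 with a preference for alanine, serine and cysteine and SLC1A5 also for glutamine. SLC1A4 (chr2:65215579-65251000, plus strand, 4778 bases of exon) had 37.2, 36.6 and 30.8 CPM in normoxia and 60.1, 50.2 and 64.9 CPM in hypoxia. The groups did not overlap, and the gene rose 1.67-fold from 34.9 ± 3.55 to 58.4 ± 7.51 CPM (log2 fold change 0.74, SE 0.12, edgeR adjusted p = 0.00141). SLC1A5 (chr19:47278140-47291842, minus strand, 3206 bases of exon) had 228, 207 and 260 CPM in normoxia and 264, 206 and 291 CPM in hypoxia. Its groups overlapped, replicate 2 had almost the same value in both conditions, and the difference between 232 ± 26.3 and 254 ± 43.4 CPM did not pass (log2 fold change 0.13, SE 0.14, edgeR adjusted p = 0.443).

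SLC38A1 (SNAT1) and SLC38A2 (SNAT2) import glutamine, alanine and other small neutral amino acids with sodium, and they lie close to each other on chromosome 12. SLC38A1 (chr12:46576840-46663208, minus strand, 9973 bases of exon) had 417, 416 and 474 CPM in normoxia and 398, 372 and 389 CPM in hypoxia. Every hypoxia library was below every normoxia library, by a narrow margin. The log2 fold change was -0.17 (SE 0.08) from 435 ± 33.0 to 386 ± 13.1 CPM and did not pass without the block (edgeR adjusted p = 0.0979). SLC38A2 (chr12:46751971-46766645, minus strand, 4884 bases of exon) had 296, 268 and 357 CPM in normoxia and 275, 230 and 312 CPM in hypoxia. Its groups overlapped although each hypoxia library was below the normoxia library of the same number, and the log2 fold change of -0.17 (SE 0.14) from 307 ± 45.6 to 272 ± 40.8 CPM did not pass without the block (edgeR adjusted p = 0.312). With the replicate block both genes fell (-0.17, edgeR adjusted p = 0.0287 and 0.0158), but with upper-quartile factors and the block the values were -0.01 and -0.02 and the calls were lost (edgeR adjusted p = 0.853 and 0.781). Upper-quartile factors moved the median of all genes by 0.16, and relative to the median of all genes the changes with the block were -0.20 for both genes under either scaling. The adjusted p over the 18 alternatives ran from 0.0287 to 0.889 for SLC38A1 and from 0.0158 to 0.924 for SLC38A2.

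**Figure D2:**
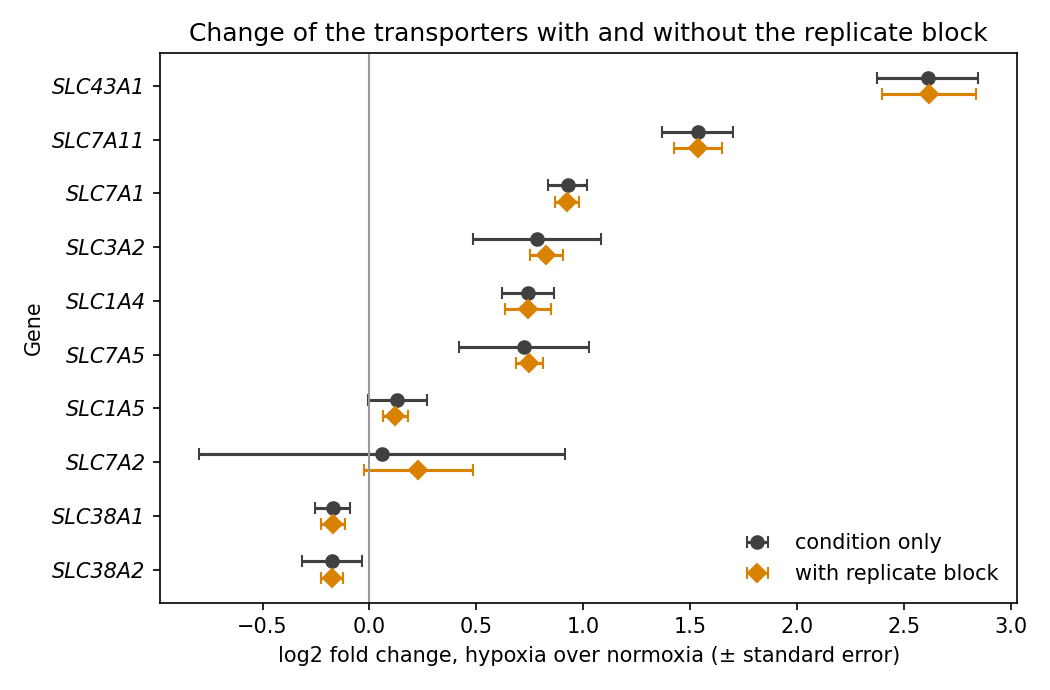
The log2 fold change of hypoxia over normoxia (horizontal axis, bars ± standard error, 6 libraries) is plotted for each of the 10 genes, from the fit with condition only (black circles) and from the fit with the replicate block (orange diamonds). The estimates were 2.61 and 2.62 for SLC43A1 and -0.17 in both fits for SLC38A2, and the estimate of SLC7A2 moved from 0.06 to 0.23. The standard errors of all 10 genes were smaller with the block. The upper-quartile factors with the block would place SLC38A1 and SLC38A2 at -0.01 and -0.02.

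Levels were compared between genes as CPM per kilobase of exon. The order was the same in both conditions, SLC7A5 (335 in normoxia and 554 in hypoxia), SLC3A2 (203 and 350), SLC1A5 (72.3 and 79.1), SLC38A2 (62.9 and 55.7), SLC38A1 (43.7 and 38.7), SLC7A1 (8.12 and 15.5), SLC1A4 (7.30 and 12.2), SLC7A11 (0.868 and 2.52), SLC43A1 (0.262 and 1.62) and SLC7A2 (0.169 and 0.186). Each gene was above the next in all 3 libraries of both conditions. The ranges over libraries overlapped between neighbours for SLC7A5 and SLC3A2 in both conditions, and for SLC1A5 and SLC38A2 and for SLC43A1 and SLC7A2 in normoxia. SLC7A5 and SLC3A2 were in the top few percent of all genes tested, at percentiles 99.1 and 98.4 of the level per kilobase in normoxia and 99.5 and 99.2 in hypoxia. They held 67.8%, 70.0% and 78.6% of the summed level of the 10 genes in normoxia and 78.4%, 80.1% and 84.4% in hypoxia. The sum itself was 596, 594 and 1013 CPM per kilobase in normoxia and 987, 893 and 1448 in hypoxia, so normoxia replicate 3 was above hypoxia replicates 1 and 2. The difference in these shares was not tested.

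**Figure D3:**
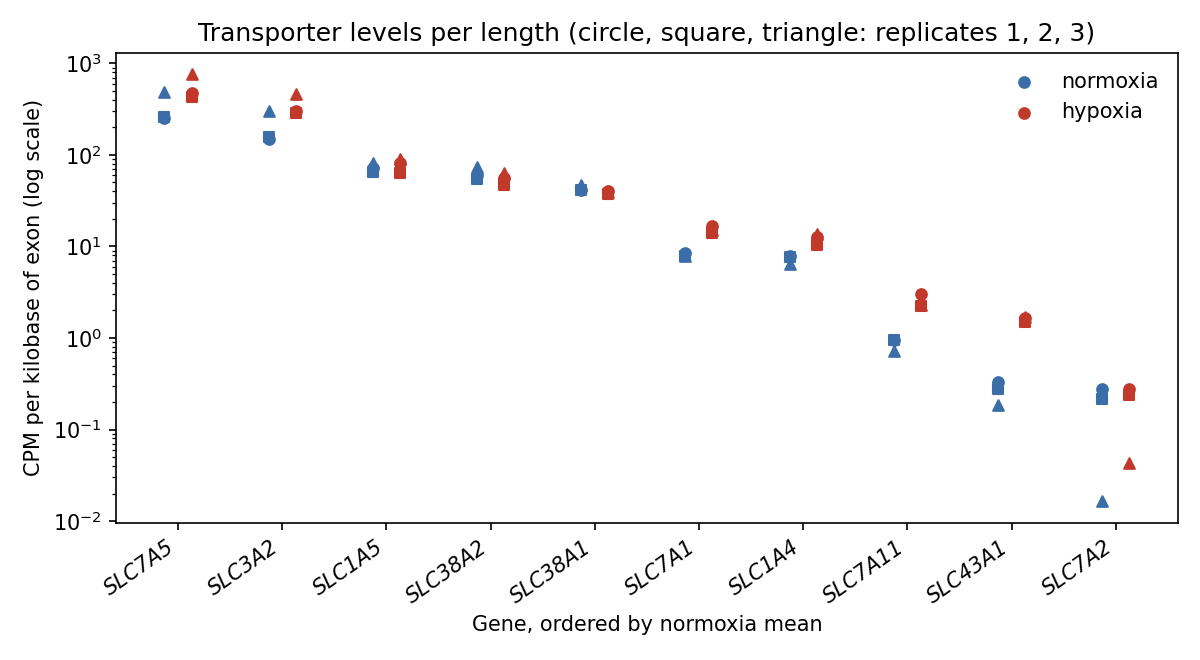
The level of each transporter gene in CPM per kilobase of exon (vertical log axis) is plotted for normoxia (blue) and hypoxia (red), with circles, squares and triangles for replicates 1, 2 and 3, and with the genes ordered by their normoxia mean. The means span from 335 for SLC7A5 to 0.169 for SLC7A2 in normoxia, the order is the same in hypoxia, and the replicate 3 libraries of SLC7A2 lie far below its other libraries.

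Ratios of 2 members within a library do not depend on the scaling between libraries, and 7 pairs that share a subunit or substrate were compared by the two-sided exact permutation test over 3 against 3 libraries, which cannot give a p below 0.1. The ratio of SLC7A5 to its heavy chain SLC3A2 was 1.71, 1.65 and 1.62 in normoxia and 1.56, 1.52 and 1.64 in hypoxia. The log2 difference of -0.08 did not pass (exact permutation p = 0.2, 0.42 after Benjamini-Hochberg adjustment over 7 pairs), and the ratio lay between 1.52 and 1.71 in every library, replicate 3 included. The ratio of SLC7A11 to SLC3A2 was 0.00636, 0.00600 and 0.00235 in normoxia and 0.00999, 0.00785 and 0.00500 in hypoxia. It was higher in hypoxia in 3 of 3 replicate numbers but overlapped between the conditions (log2 difference 0.71, exact permutation p = 0.3, adjusted 0.42), and the difference was 0.24 without normoxia replicate 3.

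The ratio of SLC1A4 to SLC1A5 was 0.109, 0.118 and 0.0796 in normoxia and 0.152, 0.164 and 0.150 in hypoxia. The conditions did not overlap and the ratio was 1.54-fold higher in hypoxia, with the smallest p that 3 against 3 libraries can give (exact permutation p = 0.1, adjusted 0.35). For SLC43A1 over SLC7A5 the ratio was 3.78-fold higher, also without overlap (0.00128, 0.00106 and 0.000373 against 0.00348, 0.00350 and 0.00225, exact permutation p = 0.1, adjusted 0.35). The neighbours SLC38A1 and SLC38A2 kept a ratio of 0.690, 0.760 and 0.649 in normoxia and 0.709, 0.792 and 0.612 in hypoxia (log2 difference 0.0046, exact permutation p = 1.0). SLC7A11 over SLC7A5 (log2 difference 0.79, or 0.34 without normoxia replicate 3, exact permutation p = 0.3) and SLC7A1 over SLC7A2 (0.41, exact permutation p = 0.6) overlapped between the conditions, and the second rested on the few counts of SLC7A2.

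**Figure D4:**
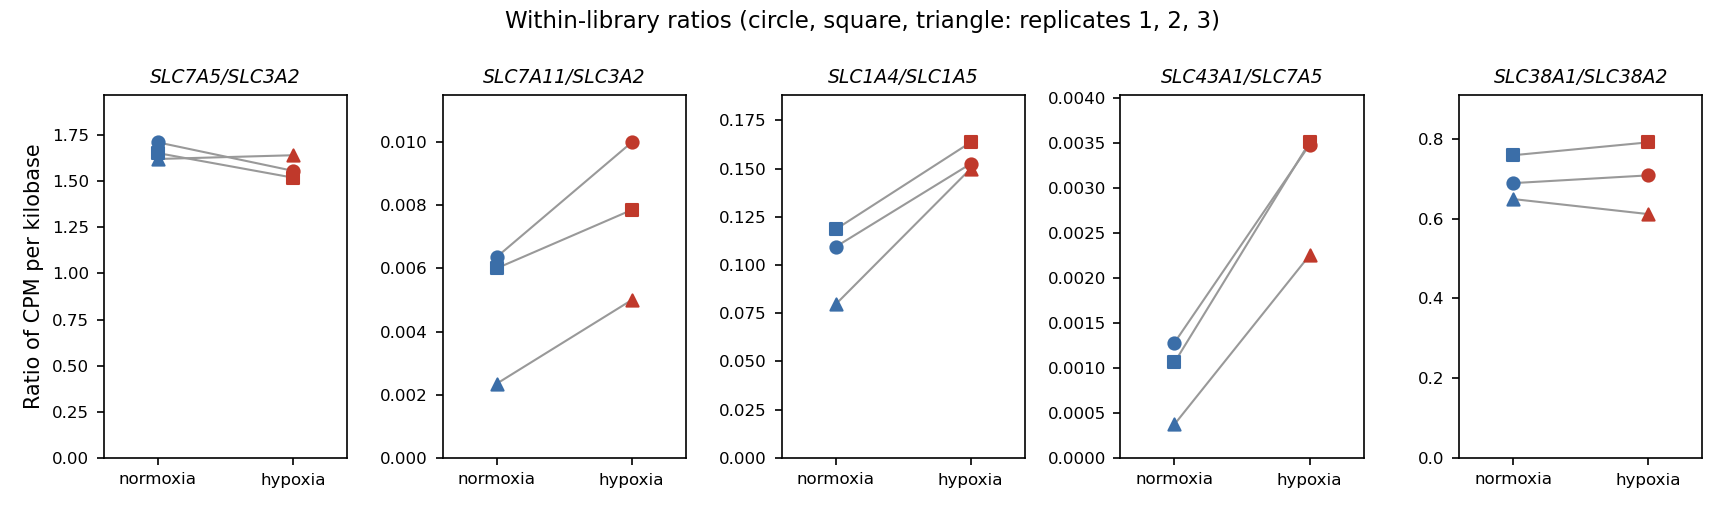
Each panel plots the ratio of 2 transporter genes in CPM per kilobase (vertical axis, from 0) in the normoxia (blue) and hypoxia (red) libraries, with circles, squares and triangles for replicates 1, 2 and 3 joined by grey lines. SLC7A5 over SLC3A2 stays between 1.52 and 1.71, and the conditions do not overlap for SLC1A4 over SLC1A5 and for SLC43A1 over SLC7A5.

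Of the other light chains of SLC3A2, 2 fell and 1 rose from a few counts, beside 29.1% and 30.4% of all genes tested. SLC7A6 (y+LAT2), an exchanger of cationic and neutral amino acids, fell from 133 ± 14.0 to 92.6 ± 18.3 CPM (log2 fold change -0.52, SE 0.14, edgeR adjusted p = 0.0155), a call that was lost without hypoxia replicate 1 or 2 (edgeR adjusted p = 0.0605 and 0.0539). SLC7A8 (LAT2), a second exchanger of neutral amino acids, fell from 25.8 ± 3.16 to 11.3 ± 0.896 CPM (-1.19, SE 0.12, edgeR adjusted p = 0.000205). SLC7A10 (Asc-1), for small neutral amino acids, rose from 4, 4 and 4 counts to 45, 48 and 66 counts (log2 fold change 3.17, SE 0.39, edgeR adjusted p = 0.000392). At 0.101 to 0.129 CPM in normoxia, SLC7A10 passed the filter on low counts only through its hypoxia libraries, which limits what its call can show. SLC7A7 (y+LAT1) had at most 1 count in normoxia and 6, 7 and 29 counts in hypoxia, and was not tested. Per kilobase, SLC7A5 made up 90.7%, 90.8% and 94.5% of the summed light chains in normoxia and 96.1%, 96.0% and 97.1% in hypoxia, with the conditions apart, and SLC7A6 went from 7.12%, 6.73% and 4.49% to 2.67%, 2.83% and 2.28%. SLC7A11 held 0.337%, 0.330% and 0.137% in normoxia and 0.617%, 0.496% and 0.296% in hypoxia, which overlapped. The summed light chains over SLC3A2 were 1.89, 1.82 and 1.72 in normoxia and 1.62, 1.58 and 1.69 in hypoxia. These shares and this sum were not tested.

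The remaining transporters of the cell surface and of lysosomes were counted as a list of 43 genes, of which 25 could be tested. In hypoxia 9 of them rose, 5 fell and 11 did not pass (30.4% of all genes tested rose and 29.1% fell), with a median log2 fold change of 0.06 (-0.01 without hypoxia replicate 3). Of those that rose, SLC1A3, SLC1A6, SLC7A9, SLC7A10 and SLC38A5 passed the filter on low counts only through their hypoxia libraries. Their testing depended on a high level in hypoxia, so the count of 9 gives no support for a rise of the list. Where the mean reached 100 counts, SLC6A9 (GlyT1, a glycine transporter) rose from 9.77 to 23.1 CPM (1.25, edgeR adjusted p = 0.00149), and SLC6A6 (TauT, for taurine) from 165 to 271 CPM (0.71, edgeR adjusted p = 0.00194). SLC43A3, which carries purine bases rather than amino acids although it belongs to the family of SLC43A1, rose from 14.0 to 22.8 CPM (0.71, edgeR adjusted p = 0.00551). The lysosomal cystine exporter CTNS fell from 23.9 to 9.40 CPM (-1.35, edgeR adjusted p = 6.96e-05) and the lysosomal exporter of cationic amino acids PQLC2 from 13.4 to 7.90 CPM (-0.76, edgeR adjusted p = 0.000765).

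Of 14 mitochondrial amino acid carriers 13 were tested, and 2 rose, 7 fell and 4 did not pass (median log2 fold change -0.48). SFXN2, a sideroflexin of the mitochondrial inner membrane, fell from 176 to 29.2 CPM (-2.60, edgeR adjusted p = 4.03e-05), whereas its relative SFXN3, for serine, rose from 34.4 to 77.7 CPM (1.18, edgeR adjusted p = 0.000194). SLC25A44, the carrier of branched-chain amino acids, fell by 1.05 on the log2 scale, SLC25A13, the aspartate and glutamate carrier, by 0.91, and SLC25A39, the glutathione carrier, by 0.64. SLC25A29, for basic amino acids, rose by 0.52. The 7 of 13 that fell stand beside 29.1% of all genes tested, and no test of the lists was made.

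The amino acid response, with ATF4, its activating kinases and its known targets, had 26 genes, all tested. Of these 18 rose, 4 fell and 4 did not pass, with a median log2 fold change of 0.86, compared with 30.4% rising, 29.1% falling and a median of 0.028 over all genes. DDIT4 (REDD1, an inhibitor of mTORC1) rose from 15.9 to 293 CPM (4.20, edgeR adjusted p = 4.2e-06) and the lipoprotein receptor VLDLR from 3.25 to 27.9 CPM (3.09, edgeR adjusted p = 0.000112). Both are also known targets of hypoxia-inducible factors. DDIT3 (CHOP) rose from 13.1 to 85.3 CPM (2.71, edgeR adjusted p = 7.04e-05) and CHAC1, which degrades glutathione, from 2.21 to 10.4 CPM (2.24, edgeR adjusted p = 0.00035). ATF5 fell from 30.5 to 11.2 CPM (-1.44, edgeR adjusted p = 0.0012), CTH, which makes cysteine from cystathionine, by 0.82 on the log2 scale, ALDH18A1, of proline synthesis, by 0.42, and the kinase EIF2AK4 (GCN2) by 0.39. ATF4 itself (222 to 336 CPM, 0.60, edgeR adjusted p = 0.00105) and asparagine synthetase ASNS rose too, the latter from 12, 8 and 10 to 74, 73 and 227 counts (2.91, edgeR adjusted p = 0.000154). These last 2 genes were chosen after their values were seen. ASNS, 1 of the 18, passed the filter on low counts only through its hypoxia libraries, which limits what its call can show.

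Cystine brought in by SLC7A11 is reduced to cysteine and used for glutathione. Of 18 genes of glutathione and cystine use 17 were tested, and 4 rose, 8 fell and 5 did not pass (median log2 fold change -0.29), beside 30.4% and 29.1% of all genes. With the replicate block 11 fell, beside 35.2% of all genes. CBS, of the transsulfuration pathway, rose by 1.65 on the log2 scale, the thioredoxin reductase TXNRD1 by 0.70 and the regulator NFE2L2 (NRF2) by 0.24, and CHAC1 belongs to this list as well. NQO1, a target of NRF2, fell from 442 to 182 CPM (-1.28, edgeR adjusted p = 9.89e-05), the glutathione reductase GSR from 125 to 65.7 CPM (-0.92, edgeR adjusted p = 9.38e-05) and the glutathione peroxidase GPX4 from 208 to 114 CPM (-0.87, edgeR adjusted p = 8.97e-05).

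Of 22 enzymes that use imported amino acids 18 were tested, and 5 rose, 9 fell and 4 did not pass (median -0.32), beside 30.4% and 29.1% of all genes. Without replicate 1 of both conditions 1 rose, beside 2648 of 15713 genes in that fit. The aspartate aminotransferases GOT2 (mitochondrial) and GOT1 (cytosolic) fell by 1.29 and 0.76 on the log2 scale, the branched-chain aminotransferase BCAT2 by 0.85 and the arginase ARG2 by 0.85. The alanine aminotransferases GPT and GPT2 rose by 1.04 and 0.39, argininosuccinate synthase ASS1 by 0.43 and the dehydrogenase subunit BCKDHA by 0.35. ASNS, also counted among the 5 that rose, passed the filter on low counts only through its hypoxia libraries. Of 24 genes that sense amino acids for mTORC1, 23 were tested, and 7 rose, 11 fell and 5 did not pass (median -0.12, but 0.04 with upper-quartile factors), again beside 30.4% and 29.1%. The GTPase RRAGD rose from 4.26 to 37.2 CPM (3.11, edgeR adjusted p = 8.32e-05) and its activator FLCN from 21.9 to 52.7 CPM (1.27, edgeR adjusted p = 7.88e-05). The sestrins SESN2, a leucine sensor, and SESN1 rose from 18.6 to 39.9 and from 6.27 to 12.8 CPM. MTOR fell from 122 to 66.7 CPM (-0.87, edgeR adjusted p = 0.000229), RPTOR, another subunit of mTORC1, by 0.68 on the log2 scale, the arginine sensor CASTOR1 by 0.96 and SAR1B by 0.85.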

How the data were processed

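RNA from 3 normoxia and 3 hypoxia samples of T47D cells was made into stranded mRNA libraries (NEB) and sequenced on Illumina HiSeq. Per the labels and the study's methods, the authors checked reads with FastQC 0.11.5, removed adapters with Skewer, aligned with STAR 2.5.2a to hg19 (GRCh37) and counted reads per RefSeq gene with featureCounts 1.5.1. The deposited files hold these raw counts, 1 file a library, without normalization. The strand setting and the handling of reads with several matches are not given in the sources used here, so reads of antisense or near-identical genes may be lost or misplaced. The study's results text gives another oxygen level for this sequencing than the labels, and the labels' 0.5% is used.

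The analysis used edgeR 4.0.16 and limma 3.58.1 under R 4.3.3. Genes were kept by filterByExpr (minimum count 10, minimum total 15), scaled by TMM and tested by the quasi-likelihood test on all 6 libraries with condition as the only term, with Benjamini-Hochberg adjustment over 15657 genes at 0.05. CPM are TMM-normalised, divided by the union of exons in the files where genes are compared. Counting error alone sets the floor of 3 counts. The methods speak of paired samples, the labels number replicates 1 to 3, and same-numbered libraries deviated together (correlations across genes of 0.338, 0.422 and 0.575), so a fit with the replicate number as a block was made too. It lowered the biological coefficient of variation from 0.141 to 0.0751. Replicates differed by more than sampling noise (lowest chi-square per degree of freedom 6.09), and all 6 were counted.

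The members and the gene lists were chosen with earlier results of these data known, so lists are described by counts and medians. Beside the members, up to 4 genes each way per list were named by the largest absolute log2 fold change among those called with a mean of at least 100 counts, besides known partners of a member. One gene that this rule names is not reported here. Alternatives were edgeR's exact test (named in the study's methods), DESeq2 1.42.0, RLE, upper-quartile and no factors, no filter, the block, thinning of the deepest library, other thresholds and leaving out libraries. The fit was tested on simulated data. Promoter windows came from RefSeq, and figures were made in matplotlib 3.10.9 (Python 3.11.15).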

Additional observations from a re-analysis of the deposited data

How the results depend on the processing

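Across the 18 alternatives of the fit, SLC7A11, SLC7A1, SLC1A4 and SLC43A1 kept their direction and their call in each. The count of members called higher was 7 with the replicate block and upper-quartile factors together, where 7100 of all 15657 genes tested were higher. That alternative was added after the data were seen and called SLC1A5 at 0.28 (adjusted p = 0.00403 in edgeR). The count was 2 where a change of 1 or more on the log2 scale was also required, beside 2373 of the 15657 genes. With the replicate block alone it was 6, and the count called lower was 2. Leaving out libraries gave 4 to 6 members called higher and 0 lower, the 6 arising without normoxia replicate 3 or without both replicate 3 libraries. The exact test, upper-quartile factors, no factors and no filter gave 6 as well. Beside these stood 4888, 5972 and 5614 of 15657 genes, and 5297 of 22214 with no filter. For SLC7A5 and SLC3A2 the log2 fold change ran from 0.42 and 0.53 without hypoxia replicate 3 to 1.10 and 1.19 without normoxia replicate 3. Over all genes, the fold threshold left 2373 called higher and 768 lower, and leaving out libraries gave 2648 to 5751 higher and 2191 to 5506 lower, the lowest without replicate 1 of both conditions. Of the calls, 51.1% were higher with TMM, 64.5% with upper-quartile factors, which moved the median of all genes by 0.157, and 61% without factors (0.116). The log2 fold change of SLC7A2, not called in any setting, ran from -0.48 without normoxia replicate 3 to 0.60 without normoxia replicate 1, and was also below 0 without hypoxia replicate 1 (-0.37) or 2 (-0.17). Leaving out 1 library gave log2 differences of -0.44 to 1.69 for the ratio SLC7A1 to SLC7A2 and -0.084 to 0.10 for SLC38A1 to SLC38A2. Among named genes of the lists, the calls of NFE2L2 and ASS1 were lost in most fits without a library, and those of SLC7A6, SLC25A29, SLC25A39, EIF2AK4, CTH, TXNRD1, GPT, GPT2 and BCKDHA without replicate 1 of both conditions, all in the same direction. The other ratios kept their sign, but SLC7A11 to SLC3A2 ran from 0.24 to 0.98 and SLC7A11 to SLC7A5 from 0.34 to 1.10, lowest without normoxia replicate 3, and differences within pairs could not go below p = 0.25 by the exact sign-flip permutation test. Over all alternatives, thresholds included, the lists had 7 to 12 higher and 2 to 7 lower (surface and lysosome), 1 to 3 and 2 to 9 (mitochondria), 11 to 19 and 1 to 5 (amino acid response), 2 to 4 and 2 to 11 (glutathione), 1 to 7 and 1 to 10 (enzymes) and 4 to 10 and 0 to 11 (sensing), the fewest lower calls always under the fold threshold. The cause of these changes was not tested. Replicate number and any culture or library batch cannot be told apart, and depth limits SLC7A2 and SLC43A1 in normoxia.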

Other observations

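Among the other cell surface transporters, several with low counts in normoxia rose, and they were chosen here after their values were seen. The glutamate and aspartate transporters SLC1A3 and SLC1A6, relatives of SLC1A4 and SLC1A5, had 13, 9 and 18 and 2, 0 and 0 counts in normoxia and 75, 59 and 293 and 14, 21 and 54 counts in hypoxia. SLC38A5 (SNAT5), a relative of SLC38A1 and SLC38A2 that carries glutamine, had 4, 7 and 17 counts in normoxia and 52, 61 and 194 in hypoxia (log2 fold change 2.66). SLC6A14, a transporter of neutral and cationic amino acids, had 36, 22 and 44 counts in normoxia and 119, 114 and 216 in hypoxia (log2 fold change 1.53). In CPM, every hypoxia library lay above every normoxia library in each of these 4 genes, as in 34.9% of all genes tested. Each passed edgeR's quasi-likelihood test in the higher direction, a call that SLC6A14 lost without replicate 1 of both conditions. The genes were chosen for their rise, so these calls add no support. SLC1A3, SLC1A6 and SLC38A5 also passed the filter on low counts only through their hypoxia libraries.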
